A study of Homo sapiens with 2 samples.

Results

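Genes linked to the differentiation of absorptive cells of the intestine, the enterocytes and colonocytes, were followed in HT-29 cells after MYC siRNA. They were a list of 37 genes chosen by name, each represented by the probe sets that name it alone, and 36 of them could be followed among 19775 genes in all. Not all are particular to differentiated absorptive cells. EPCAM is a general epithelial gene and KLF5 a factor of dividing crypt cells. HNF4A, which encodes a nuclear receptor of the gut and liver, is not analysed here. HT-29 is an established human colorectal adenocarcinoma line, and 2 arrays were made from it. One came from cells transfected with a MYC-directed siRNA pool and one from cells with a non-targeting siRNA pool as the control, each at 20 nM for 24 h, with the cells used after 48 h. The treatment field of the control sample reads None, and it is called control siRNA here after the protocol. Each condition has 1 array, so the differences below carry no measure of spread between cultures and no p-values.

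Absorptive cells arise from dividing crypt cells and mature as they move towards the lumen. Their apical surface is folded into a brush border, microvilli held up by actin bundles and linked to each other by protocadherins, which carries digestive enzymes and ion exchangers. Homeobox and zinc finger transcription factors of the CDX and KLF families take part in this program, and MYC is known in the crypt as a gene of the dividing compartment. HT-29 cells can take on absorptive features under particular culture conditions, which were not part of this experiment.

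The MYC transcript itself had a signal of 1640 with MYC siRNA, against 1963 with control siRNA, which was 1.20-fold lower in its only probe set (log2 ratio -0.26). The study reports MYC knockdown by siRNA in HT-29 cells on immunoblots of protein, which the arrays do not measure. It also reports lower expression of curated MYC target genes. The signal is the MAS5 intensity of a probe set in arbitrary units, scaled to a mean of 100 on each array, so a signal can be set against the same probe set on the other array but not against another probe set. A floor of 50 was placed under all signals, and a change was taken as a ratio of 2 or more, or of 0.5 or less. All 5 markers of epithelium (CDH1, KRT8, KRT18, KRT19 and CLDN4) were above 50 on both arrays, whereas the markers of leukocytes and endothelium were all at or under 42.5. Of the fibroblast markers, COL1A1 had 1 probe set above 50, with 78.9 with MYC siRNA and 94.7 with control siRNA, and its other probe sets were at or under 11.2. Summed over each list, signals were 95.2 with MYC siRNA and 119 with control siRNA for fibroblasts, 18.1 and 28.6 with MYC and control siRNA for endothelium, and 42.7 and 61.0 with MYC and control siRNA for leukocytes. The fibroblast sums are mostly COL1A1 and the leukocyte sums mostly CD79A (27.6 with MYC siRNA and 42.5 with control siRNA). Apart from COL1A1 these signals lie under 50, so no change is read from the sums.

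Of the 36 differentiation genes, 13 were above 50 on at least 1 array and 23 were at or under 50 on both. The share above 50 was 36.1%, against 45.1% of all 19775 genes. Of the 13, 11 were higher and 2 lower with MYC siRNA, but FAM3D, SLC26A2 and CDH17 were above 50 with MYC siRNA alone and so could only be higher. Of the 10 genes above 50 on both arrays 8 were higher, beside 51.7% of all 8277 such genes. After loess on mean signal 7 were higher, beside 49.2%. The 11 and the 8 hold KLF4 and KLF5, whose log2 ratios of 0.02 and 0.17 show no direction. In all 8917 genes above 50 on at least 1 array, 53.5% were higher, and the median log2 ratio was 0.39 in the 13 genes and 0.03 in all. At least 2-fold higher were FAM3D and USH1C, 2 of 13 (15.4%) beside 2.73% of all genes, and none was at least 2-fold lower, beside 0.695% of all genes. At 1.5-fold, LGALS4 joined the pair, giving 3 of 13 (23.1%) higher beside 10.4% of all genes, and DPP4 was the 1 gene lower, beside 5.72% of all genes. These counts hold FAM3D, which could only be higher. Above 50 on both arrays, USH1C alone was at least 2-fold higher, 1 of 10 beside 2.33% of all 8277 such genes. The median log2 ratio there was 0.43, beside 0.02 in all such genes. A higher signal of cells in bulk cannot tell more RNA per cell from more cells of a kind.

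**Figure D1:**
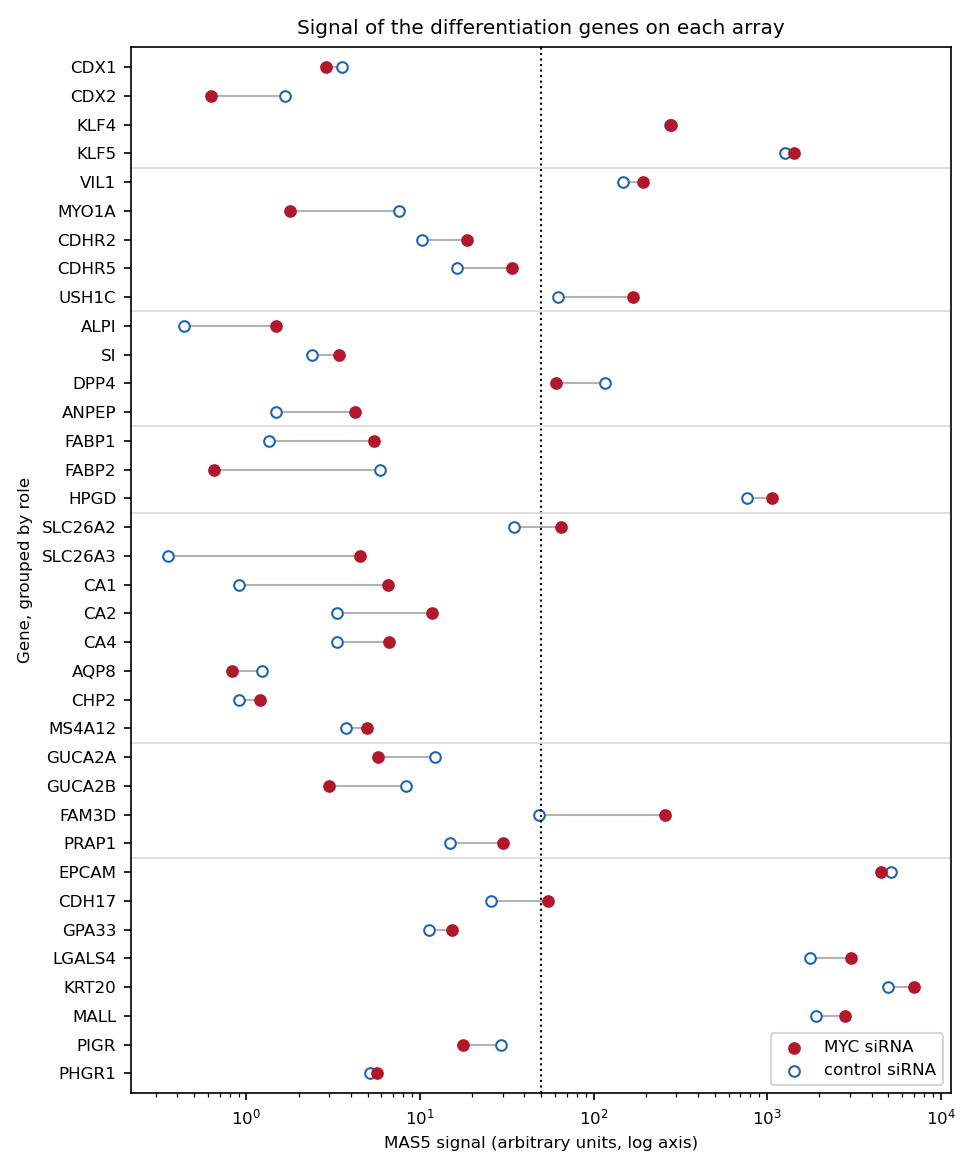
MAS5 signal (x axis, log scale, arbitrary units) of the brightest probe set of each of the 36 genes (y axis, grouped by role) with MYC siRNA (filled red) and control siRNA (open blue), 1 array each. The dotted line marks 50, and 13 genes lie right of it on at least 1 array; FAM3D and USH1C have the widest gaps among them.

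Promoter sequences are given for 4 of the measured genes, because 2 hold the same motif at the same distance from the start and the others are the genes at either end of the range of ratios. They are RefSeq windows of build GRCh38.p14 from 250 bases before to 50 bases after the start of the gene, written 5′ to 3′ on the strand of the gene. Capitals mark TTTATG or TTTACG, core letters of CDX sites, and CACGTG, the E-box that MYC and MAX bind, on either strand. The windows lie at chr17:40885193-40885492 for KRT20, chr4:174522439-174522738 for HPGD, chr3:58666725-58667024 for FAM3D and chr2:162074166-162074465 for DPP4, each on the minus strand.
KRT20: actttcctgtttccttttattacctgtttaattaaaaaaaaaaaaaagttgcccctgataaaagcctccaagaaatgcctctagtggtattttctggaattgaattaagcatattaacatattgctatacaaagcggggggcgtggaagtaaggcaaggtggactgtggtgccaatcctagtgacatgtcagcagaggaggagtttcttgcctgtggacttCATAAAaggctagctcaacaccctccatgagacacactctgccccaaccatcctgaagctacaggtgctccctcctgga
HPGD: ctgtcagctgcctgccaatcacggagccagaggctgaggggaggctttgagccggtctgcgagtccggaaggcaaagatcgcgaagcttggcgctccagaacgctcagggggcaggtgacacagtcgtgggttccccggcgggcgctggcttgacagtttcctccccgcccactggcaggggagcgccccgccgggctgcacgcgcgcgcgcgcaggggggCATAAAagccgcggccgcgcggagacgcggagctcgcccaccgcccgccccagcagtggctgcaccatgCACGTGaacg
FAM3D: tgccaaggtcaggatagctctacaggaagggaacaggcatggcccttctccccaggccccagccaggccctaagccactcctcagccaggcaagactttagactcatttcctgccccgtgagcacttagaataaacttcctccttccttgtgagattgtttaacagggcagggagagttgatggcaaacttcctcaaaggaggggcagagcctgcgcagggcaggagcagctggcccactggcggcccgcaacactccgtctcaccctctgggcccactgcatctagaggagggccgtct
DPP4: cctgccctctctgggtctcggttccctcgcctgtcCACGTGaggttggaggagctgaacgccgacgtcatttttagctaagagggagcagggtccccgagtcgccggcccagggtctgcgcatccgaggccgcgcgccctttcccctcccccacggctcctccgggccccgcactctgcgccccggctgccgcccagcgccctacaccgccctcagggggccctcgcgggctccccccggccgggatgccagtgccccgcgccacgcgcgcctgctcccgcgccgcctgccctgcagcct

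In KRT20 and in HPGD the letters CATAAA, the reverse complement of TTTATG, begin 29 bases before the start. These letters also resemble the TATA box that lies at about such a distance in many promoters. TTTATG was present in 10.6% of 34943 windows of all genes, TTTACG in 3.10% and CACGTG in 7.23%. The 27 genes of the list with a window had 35 windows, and 5 of the 35 held TTTATG. These were windows of SI, FABP1, HPGD, MS4A12 and KRT20, and SI held it at 3 places. Only HPGD and KRT20 of these were above 50 on the arrays. CACGTG was in 4 of the 35 windows of the list, and these 4 were among the 14 windows of measured genes. These belong to KLF4, SLC26A2, HPGD and DPP4, whose log2 ratios were 0.02, 0.37, 0.47 and -0.92. Of these, KLF4 showed no direction and SLC26A2 could only be higher. In HPGD the motif lies after the start of the gene. Whether the motif goes with a direction was not tested. FAM3D held none of the 3 motifs in its window. A match of letters is a description and not a measured binding site.

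FAM3D had the largest ratio of the list. It encodes a small secreted protein of the gut epithelium. Its single probe set had a signal of 260 with MYC siRNA, against 48.5 with control siRNA. The control lay just under 50, so the difference was at least 5.19-fold. The other secreted members were at or under 50 on both arrays. They were the guanylate cyclase ligands GUCA2A and GUCA2B and the proline-rich protein PRAP1, with signals of at most 30.2 with MYC siRNA and 14.9 with control siRNA.

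Among the brush border genes, USH1C stood out. It encodes harmonin, a scaffold that anchors the protocadherins between microvilli. Its brightest probe set had 170 with MYC siRNA and 62.8 with control siRNA, 2.70-fold higher. A second probe set, with 150 with MYC siRNA and 46.4 with control siRNA, was at least 1.58 higher on the log2 scale. As its control signal was under 50, that probe set could only be higher. The third had 36.6 with MYC siRNA and 16.8 with control siRNA and allows no fold. Both probe sets above 50 can bind several transcripts by their name suffix. VIL1, the actin bundler villin, had 193 with MYC siRNA and 147 with control siRNA in its brightest probe set, 1.31-fold higher, and 172 and 163 with MYC and control siRNA in another, 1.06-fold higher. The larger of these log2 ratios, 0.39, was above 0.25, the SD that separate probe sets of one dim gene showed, whereas the smaller, 0.08, was not. That SD leaves out variation between cultures.

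The protocadherins that harmonin binds could not be compared. CDHR5 had 34.0 with MYC siRNA and 16.3 with control siRNA in its brightest probe set, and 39.1 and 8.53 with MYC and control siRNA in another. CDHR2 had 18.7 with MYC siRNA and 10.2 with control siRNA. MYO1A, a brush border myosin, had 1.78 with MYC siRNA and 7.56 with control siRNA. All of these lie under 50, where no ratio was taken.

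DPP4 was the 1 digestive enzyme of the list above 50, and it was lower with MYC siRNA. It encodes the apical dipeptidase that also inactivates incretin hormones. Its brightest probe set had 61.1 with MYC siRNA and 116 with control siRNA, 1.90-fold lower. Of 1784 genes of similar signal, 17 lay at or below its ratio, but this group includes genes whose ratios are bounds set by the floor. With a floor of 100 the log2 ratio of DPP4 was -0.21. The other probe sets had 31.5 with MYC siRNA and 64.1 with control siRNA, at least 1.28-fold lower, and 35.2 with MYC siRNA and 55.2 with control siRNA, at least 1.10-fold lower. All 3 probe sets were thus lower, but the dimmer ones were above 50 with control siRNA alone and could only be lower. All lay close to the floor. The disaccharidase SI, the alkaline phosphatase ALPI and the aminopeptidase ANPEP had signals of at most 4.23 with MYC siRNA and 2.38 with control siRNA.

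HPGD, which encodes the enzyme that breaks down prostaglandin E2, was higher in all 4 of its probe sets. The brightest had 1064 with MYC siRNA and 767 with control siRNA, 1.39-fold higher. The others had 927, 798 and 414 with MYC siRNA, against 480, 475 and 266 with control siRNA, and were 1.93-fold, 1.68-fold and 1.55-fold higher. The brightest probe set thus gave the smallest ratio, and the mean log2 ratio over the 4 was 0.70. Each of the 4 can bind several transcripts. The fatty acid-binding proteins FABP1 and FABP2, classical markers of enterocytes, had signals of at most 5.41 with MYC siRNA and 5.92 with control siRNA.

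Surface, adhesion and cytoskeletal genes held 5 of the 13 measured genes. LGALS4, a galectin that takes part in apical protein transport, had 3056 with MYC siRNA and 1771 with control siRNA, 1.72-fold higher. MALL, a proteolipid of membrane rafts, had 2808 with MYC siRNA and 1905 with control siRNA, 1.47-fold higher. KRT20, the keratin of mature gut epithelium, had 7034 with MYC siRNA and 4973 with control siRNA, 1.41-fold higher. The log2 ratios of these 3 genes, 0.79, 0.56 and 0.50, each exceeded 0.17, the SD between probe sets of bright genes, but each gene has only 1 probe set. The SD also leaves out variation between cultures, so it sets no limit for an effect of the siRNA.

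EPCAM, the general epithelial adhesion molecule, had 4512 with MYC siRNA and 5156 with control siRNA, 1.14-fold lower. Its log2 ratio of -0.19 lay near the median of -0.10 of equally bright genes. CDH17, the intestinal cadherin, had 55.0 with MYC siRNA and 25.7 with control siRNA, at least 1.10-fold higher. PIGR, the receptor that carries IgA across the epithelium, GPA33 and PHGR1 were at or under 50 on both arrays, at most 17.7 with MYC siRNA and 29.2 with control siRNA.

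The transcription factors of the list moved little or were dim. KLF4, a factor of differentiated crypt cells, had 278 with MYC siRNA and 275 with control siRNA, 1.01-fold higher, a ratio that fell below 1 after median centring, quantile normalization and loess. KLF5, a factor of dividing crypt cells, had 1424 with MYC siRNA and 1263 with control siRNA in one probe set, 1.13-fold higher, and 1029 and 1053 with MYC and control siRNA in the other, 1.02-fold lower. No direction can be read from these ratios. The homeobox genes CDX1 and CDX2 had signals of at most 2.87 with MYC siRNA and 3.56 with control siRNA in all of their probe sets.

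Of 8 genes of ion, water and acid-base transport, SLC26A2 alone was above 50. This sulfate transporter had 64.8 with MYC siRNA and 35.0 with control siRNA, at least 1.30-fold higher, and its other probe sets were at or under 18.7. The chloride and bicarbonate exchanger SLC26A3, the carbonic anhydrases CA1, CA2 and CA4, the water channel AQP8, the exchanger cofactor CHP2 and MS4A12 had signals of at most 11.7 with MYC siRNA and 3.74 with control siRNA. Over all 23 genes at or under 50, every probe set of 16 genes was under 10 on both arrays. Such signals are too low to compare, and they do not show that the transcripts were absent.

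**Figure D2:**
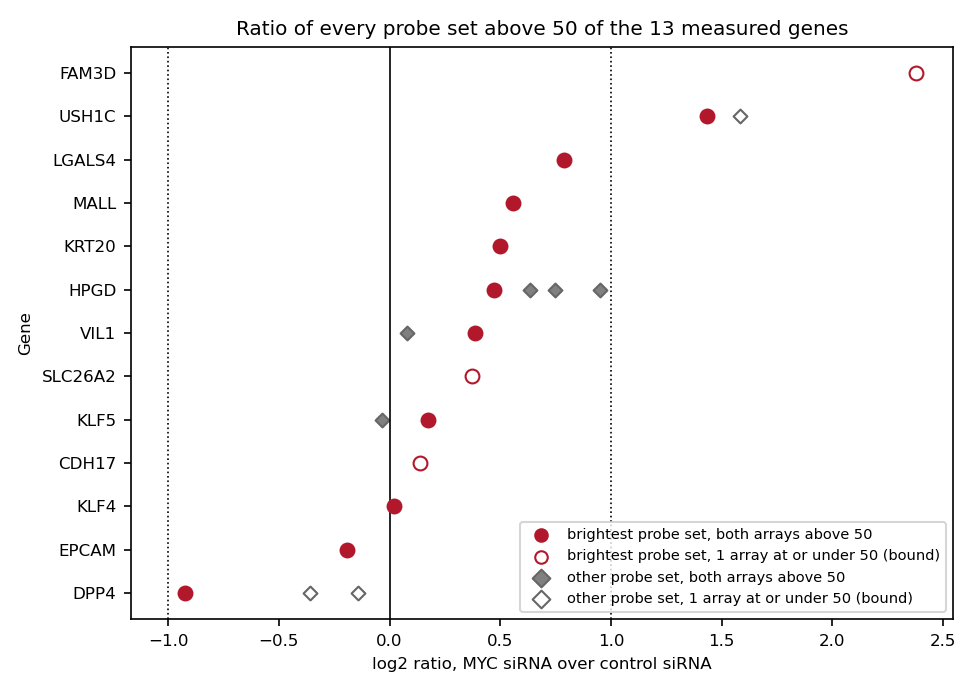
Log2 of the MYC siRNA signal over the control siRNA signal (x axis) of each of the 21 probe sets above 50 of the 13 measured genes (y axis, ordered by ratio); circles are the brightest probe set, diamonds the others, open symbols bounds with 1 array at or under 50, and dotted lines mark 2-fold. HPGD, USH1C and VIL1 lie right of 0 and DPP4 lies left of 0 in every probe set, while those of KLF5 lie on both sides. A bound could fall on 1 side of 0 alone.

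The lower probe sets were the 3 of DPP4, that of EPCAM and 1 of KLF5. Those of FAM3D, SLC26A2 and CDH17 and the second of USH1C were above 50 with MYC siRNA alone and could only be higher. Likewise the dimmer probe sets of DPP4 were above 50 with control siRNA alone and could only be lower. KLF5 was the 1 gene whose probe sets pointed both ways. The measured genes were spread from -0.92 for DPP4 to 2.38 for FAM3D on the log2 scale.

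The ratio of all genes depended on their signal. In 5 equal groups of the 8917 genes, the dimmest had a median log2 ratio of 0.15 and the brightest one of -0.10. Of the 13 differentiation genes, 6 fell in the brightest group. There HPGD, KRT20, MALL and LGALS4 were higher, KLF5 was higher in its brightest probe set alone, and EPCAM was lower. Of all genes of that group, 38.4% were higher. Of those 1783 genes, 39 had a ratio at least as high as LGALS4, 86 as MALL, 113 as KRT20 and 128 as HPGD. CDH17 and SLC26A2 lay in the dimmest group, where 65.8% of all genes were higher, and their ratios are lower bounds with no rank. After loess on mean signal, 7 of the 10 genes above 50 on both arrays were higher with a median log2 ratio of 0.42, since KLF4 changed sides. Of all 8277 such genes, 49.2% were higher after loess.

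**Figure D3:**
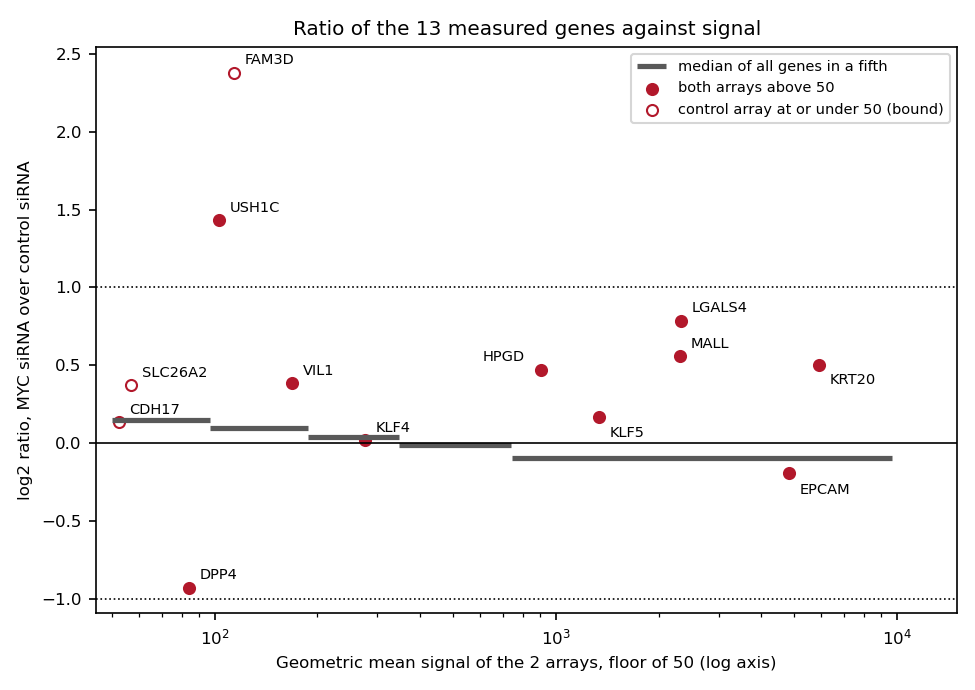
Log2 of the MYC siRNA signal over the control siRNA signal (y axis) against the geometric mean signal of the 2 arrays (x axis, log scale, floor of 50) for the 13 measured genes (red; open where the control array was at or under 50). Grey bars are the medians of all genes in 5 equal groups of signal, which run from 0.15 to -0.10; LGALS4, MALL and KRT20 lie above the bar of the brightest group.

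Other genes of the absorptive program, from lists written alongside with earlier results of these data known, were read in the same way. Of 15 further genes of the microvillus, 9 were above 50 on both arrays and all 9 were higher with MYC siRNA. Of all genes above 50 on both arrays, 51.7% were higher. The 9 had a median log2 ratio of 0.31, and none reached 2-fold. EPS8L3, a relative of the actin-capping protein EPS8, had 183 with MYC siRNA and 102 with control siRNA, 1.80-fold higher. EZR, which encodes ezrin, the linker of actin to the apical membrane, had 1449 with MYC siRNA and 1042 with control siRNA, 1.39-fold higher, and was higher in all 4 of its probe sets above 50. NHERF1, an ezrin-binding scaffold, had 735 with MYC siRNA and 561 with control siRNA, 1.31-fold higher. All 9 stayed higher after median centring, quantile normalization and loess on mean signal. Of all genes above 50 on at least 1 array, 50.1%, 51.2% and 49.8% were higher under these, in that order.

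Of 19 further transporters and channels, 5 were above 50 and all 5 were higher, with a median log2 ratio of 0.49. CFTR, the chloride channel, had 54.0 with MYC siRNA and 19.7 with control siRNA, so it could only be higher and its ratio is a bound. The 4 above 50 on both arrays were all higher, beside 51.7% of all such genes. After loess on mean signal 3 of these 4 were higher, beside 49.2% of all such genes, and CA12 changed sides. The water and glycerol channel AQP3 had 4313 with MYC siRNA and 2131 with control siRNA, 2.02-fold higher. Its other probe sets had 783 and 394 with MYC siRNA, against 312 and 143 with control siRNA, and were 2.51-fold and 2.75-fold higher. SCNN1A, a subunit of the epithelial sodium channel, had 906 with MYC siRNA and 615 with control siRNA, 1.47-fold higher. ATP1B1, a subunit of the sodium pump, had 2935 with MYC siRNA and 2088 with control siRNA, 1.41-fold higher.

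Of 14 further genes of lipid handling, 3 were above 50 on both arrays, all higher, beside 51.7% of all such genes. The 3 were DGAT1 (1.55-fold) and ACSL5 (1.37-fold), enzymes of triglyceride and acyl-CoA synthesis, and PLIN2 (1.15-fold), a coat protein of lipid droplets. The apolipoproteins and MTTP, which enterocytes use to export fat, were at or under 50. Of 14 further apical enzymes only ALPG was above 50, at 50.3 with MYC siRNA and 13.9 with control siRNA in its brighter probe set. Other intestinal transcription factors showed no common direction, with 3 of 6 higher beside 51.7% of all genes above 50 on both arrays. Their median log2 ratio was 0.06. The epithelial factors EHF and GRHL2 were 1.31-fold and 1.30-fold higher, EHF in all 6 of its probe sets, and HNF4G was 1.21-fold lower.

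Colonocyte surface genes were also mixed. Of the 3 above 50 on both arrays 1 was higher, beside 51.7% of all such genes. After loess on mean signal 2 were higher, beside 49.2%. SLPI, a secreted inhibitor of proteases, had 193 with MYC siRNA and 57.7 with control siRNA, 3.35-fold higher from a control close to the floor. PLAC8 had 370 with MYC siRNA and 548 with control siRNA, 1.48-fold lower, and TSPAN8, a tetraspanin that changed sides after loess, was 1.07-fold lower. Of the 5 epithelium markers 4 were higher, beside 51.7% of all genes above 50 on both arrays. The 4 were KRT19 (1.52-fold), CLDN4 (1.31-fold), KRT8 (1.13-fold) and CDH1 (1.12-fold). KRT18 was 1.02-fold lower, with 9158 with MYC siRNA and 9363 with control siRNA. After loess all 5 were higher, beside 49.2% of all genes above 50 on both arrays.

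**Figure D4:**
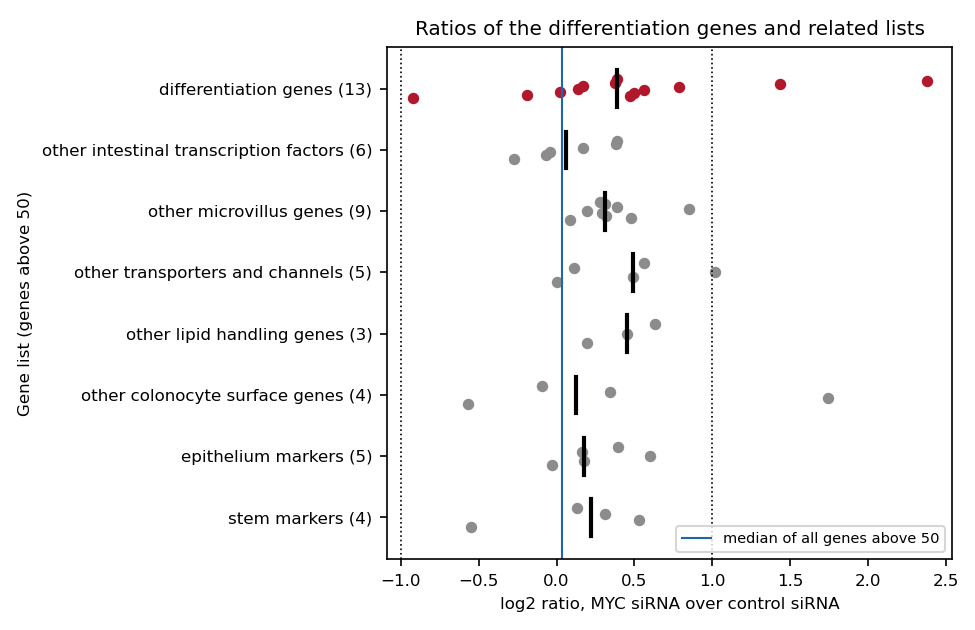
Log2 of the MYC siRNA signal over the control siRNA signal (x axis) of each gene above 50 in the differentiation list (red) and in related lists with at least 3 such genes (grey), the number of genes in brackets; ratios with 1 array at or under 50 are bounds. Black bars are medians (0.39 for the 13 differentiation genes, 0.31 for 9 microvillus genes), the blue line is the median of all genes, 0.03, and dotted lines mark 2-fold.

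Across the 10 alternative ways to process the signals, FAM3D was above 2-fold in all 10, with log2 ratios of 1.38 to 2.42. LGALS4 (0.75 to 0.89), MALL (0.53 to 0.68) and KRT20 (0.47 to 0.67) were higher in all 10. These genes have 1 bright probe set each, so only median centring, quantile normalization and loess clearly moved their ratios. The other alternatives could hardly change them. FAM3D also has 1 probe set, so means over probe sets could not change its ratio. USH1C was above 2-fold in 8 of the 9 that measured it, with 0.76 at a floor of 100. DPP4 was lower in all 10, between -1.09 and -0.21. KLF4 was higher in 5 of 9 and lower in 4.

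**Figure D5:**
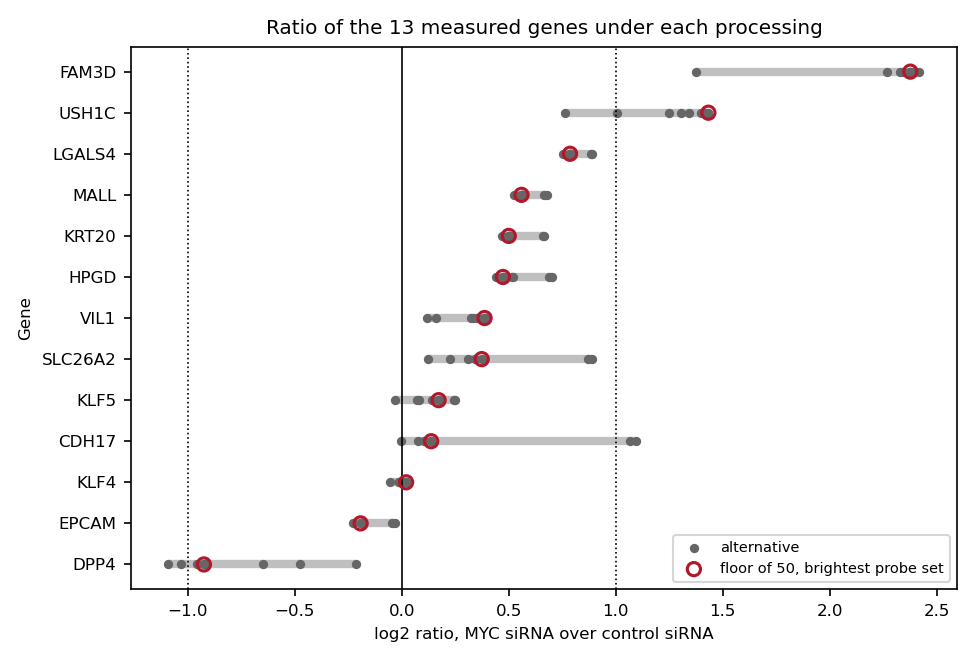
Log2 of the MYC siRNA signal over the control siRNA signal (x axis) of the 13 measured genes (y axis) with a floor of 50 and the brightest probe set (red circles) and under up to 10 alternatives (grey points, bars from lowest to highest); dotted lines mark 2-fold. FAM3D stays right of 1 (1.38 to 2.42), while CDH17, a bound at a floor of 50, runs from -0.00 to 1.10.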

How the data were processed

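RNA of HT-29 cells was hybridised to Affymetrix Human Genome U133 Plus 2.0 arrays, 1 with MYC siRNA and 1 with control siRNA. The deposited intensity values of 54675 probe sets were made by the authors with the MAS5 algorithm of the R package affy 1.40.0, with 100 as the target mean of each array, which a trimmed mean of 100 on both bore out. Of the probe sets, 41097 name 1 gene, 1801 several and 11777 are not listed in the platform annotation. Symbols were updated to RefSeq, GRCh38.p14, through gene identifiers, which held 19735 of 19775 genes.

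Signals were raised to a floor of 50 and MYC siRNA was divided by control siRNA on the log2 scale, with the brightest probe set standing for each gene. A fold with 1 array at the floor is a lower bound, and none is given with both there. The SD between probe sets of a gene, over 3604 genes, was 0.25 for dim, 0.22 for middling and 0.17 for bright genes; it leaves out variation between cultures. Genes and lists were chosen with earlier results of these data known. All 37 listed genes are named and, of each related list, up to 3 with the largest ratio and a signal of at least 100, besides further ones noted after their values were seen. The promoters printed were chosen after values were seen. The calculation was tested on simulated arrays. Python 3.11.15, numpy 2.4.6, pandas 2.3.3, statsmodels 0.14.6 and matplotlib 3.10.9 were used. Alternatives were floors of 25, 100 and none with 1 added, thresholds of 1.5-fold and 3-fold, median centring, quantile normalization, loess with a span of 0.3, no probe sets that can bind several transcripts, means over probe sets and a minimum of 100.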

Additional observations from a re-analysis of the deposited data

How the results depend on the processing

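With 1 array per condition, neither the spread between cultures nor a paired analysis was possible, and low signal limits the 23 genes at or under 50. The median log2 ratio of the differentiation genes was 0.32 to 0.50 under 9 of 10 alternatives. It was 0.14 when the log2 ratios of all probe sets of a gene were averaged, which counts probe sets at or under 50 as unchanged. The number at least 2-fold higher was 1 with a floor of 100, where USH1C was lost, 1 without probe sets that can bind several transcripts, where USH1C was no longer measured, and 1 at 3-fold. The number at least 2-fold lower, none otherwise, was 1 (DPP4) after quantile normalization and after loess, and 1 at 1.5-fold. The number lower was 4 after loess, which counts CDH17, whose ratio is a bound set by the floor. Among the genes above 50 on both arrays, a limit chosen after seeing the data, 8 of 10 were higher, KLF4 and KLF5 among them. Of all such genes, 51.7% were higher. There 1 was at least 2-fold higher (USH1C), beside 2.33% of all 8277 such genes, and none at least 2-fold lower, beside 0.664%. With loess as well, 7 were higher, beside 49.2% of all such genes. There 1 was at least 2-fold higher, beside 1.96%, and 1 at least 2-fold lower, beside 0.834%. The number higher was 7 of 9 without probe sets that can bind several transcripts, beside 54.6% of all 6313 genes. There USH1C, HPGD, KLF4 and EPCAM, which is lower otherwise, were no longer measured, and KLF5 was lower, with a log2 ratio of -0.03. CDH17 passed 2-fold with no floor and, at a log2 ratio of 1.10, with a floor of 25, which its signals of 55.0 with MYC siRNA and 25.7 with control siRNA set. That floor also brought in CDHR5 (log2 ratio 0.44), PRAP1 (0.27) and PIGR (-0.22). Of 121 values of single genes under the alternatives, 106 moved by less than 0.21, the SD between probe sets over genes of all signals, and 15 by more. Some of the 106 could not move, because floors and means over probe sets leave bright genes with 1 probe set unchanged.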

Other observations

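Markers of other cell types of the gut, from the lists written alongside, were mostly at or under 50. Of the goblet cell markers only SPDEF, a transcription factor of secretory cells, was above 50, with 220 with MYC siRNA and 153 with control siRNA, 1.44-fold higher, while the mucin MUC2 and TFF3 were at or under 22.9. No marker of enteroendocrine or tuft cells was above 50. LYZ, the Paneth cell lysozyme, had 6854 with MYC siRNA and 6077 with control siRNA, 1.13-fold higher, whereas the defensins DEFA5 and DEFA6 had signals of at most 2.77.

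The stem cell and Wnt markers pointed in different directions, with 2 of the 3 above 50 on both arrays higher, beside 51.7% of all such genes. LGR5, the R-spondin receptor of crypt stem cells, had 84.2 with MYC siRNA and 123 with control siRNA, 1.47-fold lower. AXIN2, a feedback target of Wnt signalling, had 707 with MYC siRNA and 490 with control siRNA in its brightest probe set, 1.45-fold higher. Its other probe sets had log2 ratios of 0.59, -0.04 and -0.07. RNF43 was 1.24-fold higher.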
